A study of Mus musculus with 12 samples.

Results

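The 12 RNA-seq libraries came from mouse intestinal epithelial cells sorted by fluorescence from a Sox9-GFP reporter, and the comparison set the 6 libraries of the Sox9 Low and Sox9 Sublow gates (called cycling gates here) against the 6 libraries of the Sox9 High and Sox9 Negative gates (called differentiated gates). All 12 deposited libraries entered it, 3 for each gate, with replicates lettered A to C. The question was which genes both cycling gates, or both differentiated gates, shared whatever the lineage of the cells. For each gene the mean of the Low and Sublow group means was compared with the mean of the High and Negative group means on the log2(value + 1) scale. Of 30265 gene symbols, the 16577 that reached a value of 10 in 3 or more libraries were tested. Every library was labelled strain C57Bl/6, source intestinal epithelial cells, and total RNA from 12000 sorted cells, depleted of ribosomal RNA and made into single-end libraries (Clontech Total RNA Pico kit, SMARTer v2). All 4 gates carry the same Sox9-GFP reporter and differ in labelling only by the gate. The labels give neither age nor sex, and nothing in them says that the 3 replicates of a gate came from separate animals, so the p-values below measure only the spread between these libraries, which may be technical.

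The intestinal epithelium is renewed by dividing cells in the crypts, the stem cells at the base and the transit-amplifying progenitors above them. Cells that leave this compartment stop dividing and become absorptive enterocytes or secretory cells such as goblet, Paneth, enteroendocrine and tuft cells. Sox9 is a transcription factor of the crypt whose level differs between these cells, which is why a Sox9 reporter can separate them. The dividing state is carried by gene programmes that act in turn: G1 cyclins and E2F factors, the replication machinery of S phase with its histones, and the mitotic apparatus.

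The libraries held 11630042 to 17046944 reads. Sox9 itself followed the gates, with 18857, 21060 and 20868 in High, 7655, 5945 and 6204 in Low, 1955, 1259 and 3039 in Sublow and 703, 383 and 725 in Negative (deposited values, replicates A to C). The comparison pairs the highest with the lowest Sox9 gate, and Sox9 was not called different between the sides (log2 difference 0.06 ± 0.21 SE, adjusted p = 0.826 by limma with Benjamini-Hochberg adjustment). The labels of the sides were checked against markers. Mki67, a nuclear protein of dividing cells, ranged from 11832 to 21201 (median 18861) in the 6 cycling libraries and from 1040 to 6131 (median 1836) in the 6 differentiated ones, with no overlap. The stem cell marker Lgr5 was highest in Low (2150, 1923 and 3354), the enteroendocrine granin Chga (150003, 108273 and 90732) and the tuft kinase Dclk1 (38975, 38051 and 41071) in High, and the enterocyte fatty acid binding protein Fabp1 in Negative (26011, 43385 and 27664). The gates are mixtures. Fabp1 also stood at 8417, 21109 and 2699 in Sublow, and the goblet mucin Muc2 was higher in Low and Sublow than in either differentiated gate. In such bulk libraries, fewer cells of a type and less RNA per cell cannot be told apart.

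In the principal components of the 16577 genes, the largest axis held 60.3% of the variance and did not separate the sides. High (135.825 to 143.108) and Negative (-131.685 to -104.514) lay at its opposite ends. Low (31.021 to 50.985) and Sublow (-86.871 to -42.611) lay between them. The next axis, with 20.3% of the variance, separated the sides. It ran from -1.97 to 81.4 in the cycling libraries and from -79.2 to -32.7 in the differentiated ones. On that next axis Sublow B was the cycling library nearest to the differentiated side, and Negative A the differentiated library nearest to the cycling side. The share of counts from the mitochondrial genome was 1.37% to 1.61% in High, 2.53% to 3.31% in Low, 3.10% to 3.98% in Sublow and 4.19% to 5.08% in Negative, so it did not follow the sides. Markers of other cell types were present at various levels. The summed levels of 11 T cell markers were 373 to 753, of 7 myeloid markers 66.7 to 257, of 10 stroma and muscle markers 173 to 385, of 6 B cell markers 39.9 to 81.5, of 7 glia and neuron markers 164 to 378, and of 5 erythrocyte markers 4.61 to 81.2 over the 12 libraries. No marker of these lists was at 0 in all libraries. Of 6 myeloid markers tested, 3 were called higher in the cycling gates and 2 in the differentiated gates, against 20.2% and 23.3% of all genes. For 2 of the 6 markers, the 6 cycling libraries all lay above the 6 differentiated ones, against 6.73% of all genes. The summed myeloid level was 66.7 to 126 in High, 174 to 226 in Low, 107 to 257 in Sublow and 85.5 to 116 in Negative. The summed level of 6 endothelial markers was the highest of these lists and followed the sides without overlap, at 1363 to 1630 in High and 1294 to 1541 in Negative, against 1025 to 1164 in Low and 899 to 1261 in Sublow. Of its 3 markers tested, Tek and Vwf were called higher in the differentiated gates and Pecam1 was not called. The defining markers Cdh5, Kdr and Emcn did not pass the filter on low values, and Cdh5 reached at most 8.17. Tek was high in High alone, with 283, 224 and 287 there and at most 20.6 elsewhere. Of 4 glia and neuron markers tested, 1, Elavl4, was called, higher in the differentiated gates, near the 23.3% of all genes. The part of these markers in the results was not tested.

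The averaged contrast called 7207 of 16577 genes (43.5%) at an adjusted p below 0.05, 3343 higher in the cycling gates (20.2%) and 3864 higher in the differentiated gates (23.3%). The cycling side thus took 46.4% of the calls. When every library was scaled to the same total, 4409 of 6845 calls (64.4%) were higher in the cycling gates, with the median log2 difference over all genes at 0.07 in place of -0.10. An average of 2 gates is moved by a single gate that differs strongly. Of the 3864 genes higher on the differentiated side, 1511 (39.1%) had High above both cycling gates with Negative different from neither, 582 (15.1%) had only Negative above both, and in 63 (1.63%) the High and Negative gates lay on opposite sides of both cycling gates.

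A gene was therefore counted as shared only when all 4 pairwise comparisons (Low and Sublow, each against High and against Negative) were called in the same direction. Both cycling gates stood above both differentiated gates for 884 genes (5.33% of those tested). The reverse held for 245 genes (1.48%). Thus 26.4% of the genes called higher in the cycling gates were shared, and 6.34% of those called higher in the differentiated gates. The smallest of the 4 log2 differences had a median of 1.20 for the cycling set and 0.63 for the differentiated set. It was at least 1, a doubling, for 543 and 30 genes respectively. In simulated data, with 100 genes changed 2-fold and 100 changed 4-fold among 16577, the rule found 25% and 83% of them. Far fewer genes changed there than were called here, which makes the adjustment stricter. These shares therefore do not carry over to these data. A gene not counted may still be shared. The plot of the cycling gates against each differentiated gate shows both sets among all genes tested.

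**Figure D1:**
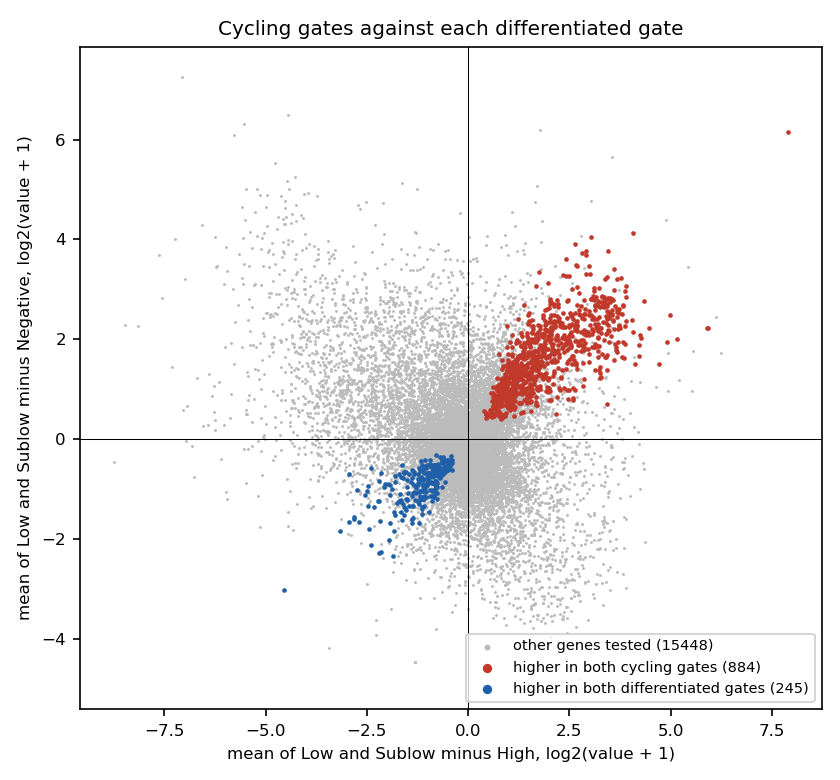
Each point is 1 of the 16577 genes tested; the axes give the mean of Low and Sublow minus High (x) and minus Negative (y), both on the log2(value + 1) scale. The 884 genes higher in both cycling gates (red) lie at the upper right and the 245 higher in both differentiated gates (blue) at the lower left, closer to 0.

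The 6 cycling libraries all lay above the 6 differentiated ones for 1116 genes (6.73% of those tested), and all below for 472 (2.85%). Among the shared genes this was so for 827 of 884 and 213 of 245. Shared genes were picked by differences between the same libraries, so these counts are not separate support. Within each side the 2 gates were mostly not called different from each other: neither High from Negative nor Low from Sublow for 671 of the 884 and 153 of the 245. Where they did differ, the direction was uneven. Negative was called above High for 157 genes of the cycling set and High above Negative for 21. In the differentiated set High was called above Negative for 57 genes and Negative above High for 0, and Sublow above Low for 40 and Low above Sublow for 0, all by limma at an adjusted p below 0.05.

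Single libraries had a marked place in both sets. Sublow B was the lowest of the 6 cycling libraries for 745 of the 884 genes and the highest of them for 215 of the 245. Negative A was the highest differentiated library for 489 of the 884 and the lowest for 114 of the 245. Without Sublow B and Negative A together, a setting chosen after seeing the data, 1210 genes were shared by the cycling gates and 423 by the differentiated gates. The differentiated set was the less stable of the pair. It held 36 genes without Negative B, 62 without Sublow C, 90 without Sublow A, 150 without Negative C, 158 without High B, 159 without High A and 465 without Sublow B. The cycling set held 516 without Sublow C, 559 without Negative B and 1255 without Sublow B. Of the genes shared as reported, 414 of 884 (46.8%) and 14 of 245 (5.71%) were shared under each of the 23 alternatives run.

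**Figure D2:**
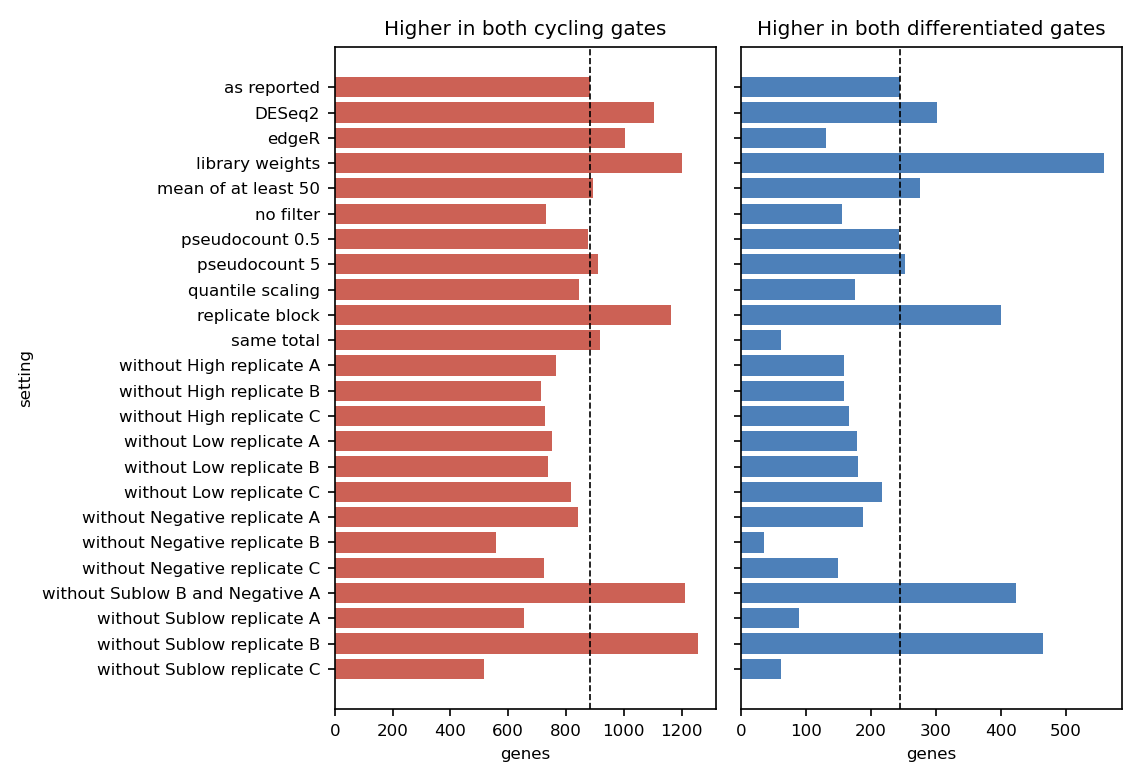
Bars give the number of genes (x axis) higher in both cycling gates (left) and in both differentiated gates (right) under each setting (y axis), and dashed lines mark the 884 and 245 genes as reported. The right panel varies more, from 36 genes without Negative B to 559 with library weights.

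On the cycling side, the 15 genes with the largest smallest-of-4 log2 difference, among 673 eligible shared genes, were Hist1h2ai, Ttk, Bub1, Uhrf1, Mcm3, Hist1h2bf, Hist1h1b, Ung, Ndc80, Hist1h2br, Ncaph, Hist1h4f, Prelp, Hist1h2bl and Phgdh. Their smallest differences ran from 2.64 (Phgdh) to 3.23 (Hist1h2ai). Neither pair of gates within a side was called different for any of the 15. The shared call held in all 23 alternatives for 14 of them, and for Phgdh in 21, the exceptions being without Negative B and without Sublow C.

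**Figure D3:**
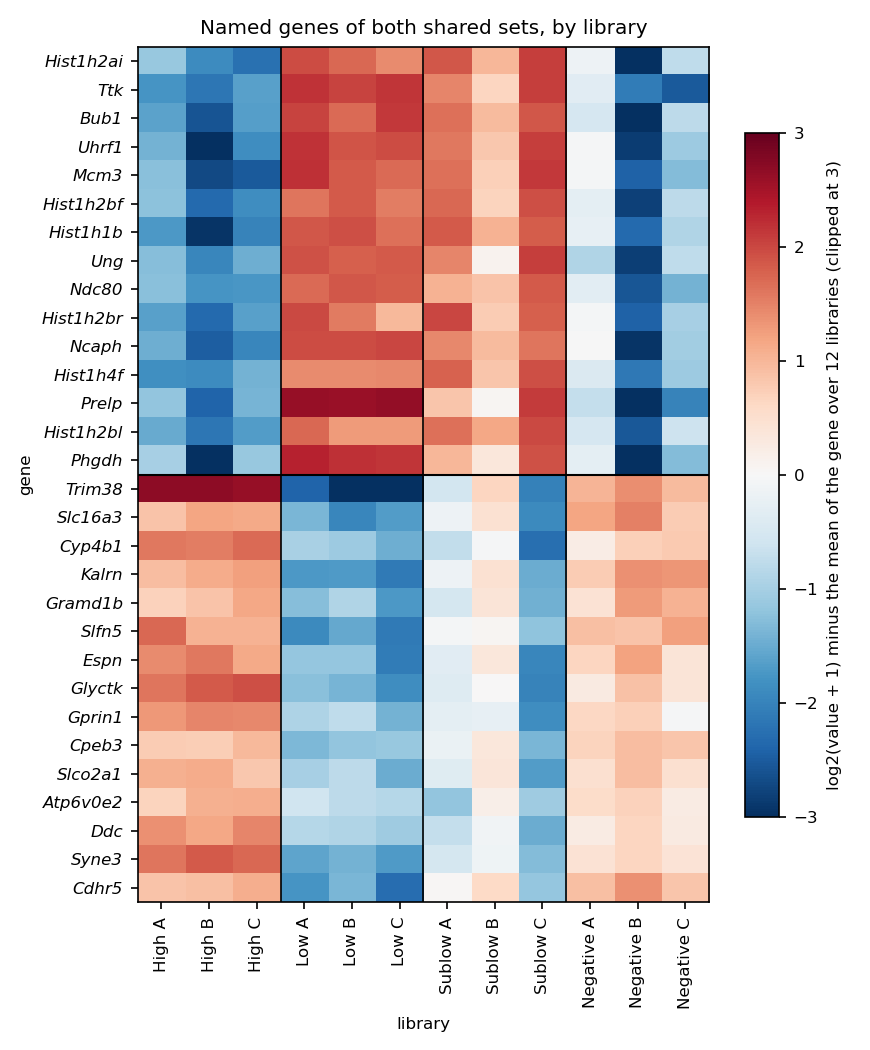
Rows are the 30 named genes and columns the 12 libraries; colour is log2(value + 1) minus the mean of the gene over the libraries, clipped at 3. The upper 15 rows are high in Low and Sublow, with Sublow B the palest of the 6, and the lower 15 rows are high in High and Negative.

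Mitosis was the most uniform group. All 24 genes of the mitosis list were called higher on the cycling side and all 24 were shared, with a median log2 difference of 2.83 (20.2% of all genes tested were called higher in the cycling gates and 5.33% were shared). Bub1, a kinase of the spindle checkpoint, stood at 496, 397 and 529 in Low and 379, 236 and 440 in Sublow, against 38.8, 19.4 and 38.0 in High and 84.5, 12.3 and 69.6 in Negative. The difference was 10.9-fold on the log2(value + 1) scale (3.44 ± 0.40 SE, adjusted p = 5.78e-05, limma). Ttk, which also acts in that checkpoint, ranged from 131 to 373 (median 347) in the cycling libraries and from 13.7 to 65.5 (median 21.0) in the differentiated ones. Ndc80, which ties kinetochores to microtubules, ranged from 241 to 486 (median 453) and from 21.5 to 107 (median 44.0). Top2a, which untangles sister chromatids, was the more abundant at 10996, 10528 and 10156 in Low and 7468, 5136 and 9619 in Sublow, and fell to 1427, 639 and 899 in High and 2460, 587 and 1459 in Negative.

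For all 4 of these genes Negative A was the highest differentiated library, and Negative B was the lowest for all but Ttk. Cdk1, the kinase that drives entry into mitosis, ranged from 362 to 683 (median 604) in the cycling gates and from 33.2 to 177 (median 78.6) in the others (log2 difference 2.80 ± 0.28 SE, adjusted p = 2.90e-05, limma). Cdc20, the activator of the anaphase-promoting complex, differed by 2.52 ± 0.27 SE (adjusted p = 3.80e-05, limma), and Kif11, a spindle motor, ranged from 1362 to 2751 (median 2585) against 151 to 733 (median 259). Of the condensin, cohesin and kinetochore list, 25 of 25 genes tested were called higher in the cycling gates and 21 were shared (median log2 difference 2.06). Ncaph, a condensin subunit, led it with values from 471 to 983 (median 846) against 30.8 to 243 (median 75.5).

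Because the mitotic genes moved together, the letters upstream of their starts were read from the RefSeq promoter table (assembly GRCm38.p6). A match is a description of the letters, not a site. Both strands of the 250 bases before each start were searched for the CCAAT box (CCAAT), for the core of the cell cycle genes homology region, CHR (TTTGAA), and for E2F patterns (TTTGGCGC, TTTCCCGC, TTTCGCGC or TTTGCCGC). The patterns may overlap and each was counted separately. The CCAAT box was present in 18 of 20 mitosis promoters found in the table (90%), against 34.5% of all 27025 promoters there, and CHR in 7 of 20 (35%) against 16.3%. E2F patterns were present in 1 of 20 (5%), against 1.91%. Of the genes higher in both differentiated gates, 196 of 245 had an entry, and 33.7% held the CCAAT box and 9.18% CHR. Lists with more calls on the differentiated side varied in the CCAAT box. Among those with at least 80% of members matched, its share ran from 14.8% (apoptosis) to 68.8% (circadian clock). It was 52.4% for cell cycle exit and CDK inhibitors. Lists with fewer members matched went beyond this range, with 16 of 17 promoters found for cholesterol synthesis and 3 of 24 for ESCRT and endosomal sorting. The 150 bases before the start of Bub1, Top2a, Cdk1, Cdc20 and Kif11 are shown as examples. These genes were not picked by a rule, so their matches do not stand for the list. The bases are written 5′ to 3′ on the strand of the gene, with CCAAT, CHR and E2F matches in capitals on either strand.
Bub1 (chr2:127831860-127832009, minus strand): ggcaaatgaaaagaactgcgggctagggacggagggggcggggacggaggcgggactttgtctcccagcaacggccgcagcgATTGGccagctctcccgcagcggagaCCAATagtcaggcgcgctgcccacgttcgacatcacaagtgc
Top2a (chr11:99024190-99024339, minus strand): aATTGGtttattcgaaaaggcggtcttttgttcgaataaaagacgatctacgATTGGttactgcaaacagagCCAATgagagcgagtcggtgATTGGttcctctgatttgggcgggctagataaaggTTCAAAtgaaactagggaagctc
Cdk1 (chr10:69352913-69353062, minus strand): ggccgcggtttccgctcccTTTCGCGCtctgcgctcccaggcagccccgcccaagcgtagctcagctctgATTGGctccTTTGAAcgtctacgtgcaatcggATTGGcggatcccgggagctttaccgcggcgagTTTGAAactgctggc
Cdc20 (chr4:118437344-118437493, minus strand): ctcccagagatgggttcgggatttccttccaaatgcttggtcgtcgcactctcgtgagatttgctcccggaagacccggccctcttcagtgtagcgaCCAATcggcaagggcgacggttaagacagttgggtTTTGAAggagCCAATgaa
Kif11 (chr19:37376232-37376381, plus strand): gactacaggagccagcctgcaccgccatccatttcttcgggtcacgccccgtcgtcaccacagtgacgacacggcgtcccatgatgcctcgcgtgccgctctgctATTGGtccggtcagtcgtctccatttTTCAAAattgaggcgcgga

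In the 150 bases shown, Top2a held 4 CCAAT matches and Bub1, Cdk1 and Cdc20 held 2 each. A CHR match began 23 bases before the listed start of Top2a, 15 before that of Cdk1, 18 before that of Cdc20 and 19 before that of Kif11. Bub1 had none in this window.

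The replication machinery was nearly as uniform. All 29 genes of the S phase list were called higher on the cycling side and 26 were shared (median log2 difference 2.29). Mcm3, a subunit of the replicative helicase, stood at 2228, 1730 and 1586 in Low, 1535, 795 and 2118 in Sublow, 203, 73.7 and 83.6 in High and 468, 89.2 and 196 in Negative (3.42 ± 0.39 SE, adjusted p = 4.83e-05, limma). Sublow B was the lowest cycling library and Negative A the highest differentiated one. Pcna, the replication clamp, was called by the contrast (1.06 ± 0.19 SE, adjusted p = 0.00102, limma) but was not among the shared genes, with 766, 771 and 1645 in Sublow and 825, 631 and 760 in Negative. Uhrf1, which brings the maintenance methylase Dnmt1 to replicated DNA, ranged from 846 to 2180 (median 1827) in the cycling libraries and from 51.6 to 474 (median 156) in the differentiated ones. Ung, the glycosylase that removes uracil from DNA, ranged from 64.8 to 258 (median 214) and from 7.69 to 35.4 (median 22.7).

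E2F patterns were found in 6 of 24 S phase promoters in the table (25%), against 1.91% of all promoters there, and the CCAAT box in 16 of 24 (66.7%). CHR was found in 3 of 24 (12.5%), against 16.3% of all promoters. Mcm5 and Mcm6 are shown because their 150 bases hold E2F patterns, in capitals with the CCAAT matches.
Mcm5 (chr8:75109359-75109508, plus strand): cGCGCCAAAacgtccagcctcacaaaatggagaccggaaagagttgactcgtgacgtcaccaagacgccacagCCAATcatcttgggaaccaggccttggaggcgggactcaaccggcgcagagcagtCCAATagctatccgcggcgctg
Mcm6 (chr1:128359706-128359855, minus strand): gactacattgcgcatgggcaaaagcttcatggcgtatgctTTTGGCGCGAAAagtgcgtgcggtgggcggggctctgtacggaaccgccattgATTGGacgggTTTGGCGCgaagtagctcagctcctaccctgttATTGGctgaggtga

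Mcm6 held 3 E2F matches, a pair of which overlap 110 and 106 bases before the start. Mcm5 differed by 3.07 ± 0.39 SE (adjusted p = 9.46e-05, limma) and Mcm6 by 2.55 ± 0.27 SE (adjusted p = 3.52e-05, limma).

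Histone genes of the replication-dependent clusters made up 6 of the 15 named genes of the cycling gates, and Hist1h2ai had the largest smallest-of-4 difference. Of 59 such genes tested, 57 were called higher in the cycling gates and 51 were shared (median log2 difference 2.68). Hist1h2ai, which encodes an H2A protein, stood at 4797, 4053 and 3295 in Low and 4472, 2470 and 5228 in Sublow, and at 557, 333 and 261 in High and 1111, 86.1 and 722 in Negative. Negative B was the lowest library. Genes of these clusters are near-identical copies, so how the counting split reads between them is uncertain. Their transcripts mostly lack a poly(A) tail, and the total RNA libraries here were not selected for one. Of the replication-independent histone genes, 7 of 14 were called higher in the cycling gates and 4 were shared (median 0.29).

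The CCAAT box was present in 40 of 47 promoters (85.1%) of the shared cluster histones and CHR in 20 of 47 (42.6%). The shares were near those of all tested cluster histones, 44 of 54 (81.5%) and 22 of 54 (40.7%). Over all promoters they were 34.5% and 16.3%. Hist1h2ai is shown as the gene with the largest smallest-of-4 difference, although its averaged contrast (3.34) was below those of Prelp (3.61), Ttk (3.51), Uhrf1 (3.49), Bub1 (3.44), Mcm3 (3.42) and Hist1h1b (3.38). It lies divergent from Hist1h2bl, also among the 15 named genes, and the 150 bases before each start overlap. Some of the same bases were thus counted for both genes.
Hist1h2ai (chr13:21716262-21716411, plus strand): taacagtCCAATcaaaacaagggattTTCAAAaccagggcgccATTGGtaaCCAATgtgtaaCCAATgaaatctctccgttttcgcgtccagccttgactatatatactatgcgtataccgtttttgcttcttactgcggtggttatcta

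G1 cyclins and other cell cycle regulators followed in part. Of 22 G1 cyclins and regulators, 17 were called higher in the cycling gates, 0 lower, and 12 were shared: Ccnd1, Ccnd2, Ccne1, Cdk4, Cdk6, E2f1, E2f7, E2f8, Foxm1, Mybl2, Tfdp1 and Cdc25c. Ccnd1, cyclin D1, stood at 1635, 1386 and 1500 in Low, 1307, 737 and 1726 in Sublow, 217, 81.1 and 144 in High and 524, 118 and 374 in Negative (2.75 ± 0.35 SE, adjusted p = 9.74e-05, limma). The gates of each side overlapped with each other and the sides did not. Foxm1, a factor of mitotic gene transcription, ranged from 555 to 1012 (median 886) in the cycling libraries and from 55.4 to 270 (median 113) in the differentiated ones. Cdk6, the partner of D cyclins, was called higher in Low than in Sublow as well (log2 difference 1.40, adjusted p = 0.0125, limma), with 1478, 1405 and 1827 against 633, 373 and 874.

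DNA repair genes (28 of 30 called higher in the cycling gates, 0 lower, 21 shared, median 1.74) and nuclear pore and import genes (23 of 27, 0 lower, 17 shared, median 1.16) moved the same way. Brca1, a repair scaffold, differed by 2.85 ± 0.28 SE (adjusted p = 2.66e-05, limma). Of 25 nucleotide and one-carbon synthesis genes, 21 were called higher, 1 lower and 12 were shared. Phgdh, the first enzyme of serine synthesis, stood at 305, 281 and 271 in Low and 122, 77.1 and 229 in Sublow, against 29.8, 6.45 and 27.0 in High and 49.6, 6.15 and 24.0 in Negative. Sublow B was again the lowest of the cycling libraries. Rrm2, a subunit of ribonucleotide reductase, differed by 2.51 ± 0.29 SE (adjusted p = 5.25e-05, limma).

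Ribosome biogenesis genes were higher on the cycling side. Of 30 Myc and ribosome biogenesis genes, 29 were called higher in the cycling gates, 0 lower, and 24 were shared (median 1.61). Myc, the transcription factor for which the list is named, stood at 1126, 1082 and 1613 in Low, 470, 339 and 1463 in Sublow, 154, 103 and 155 in High and 137, 29.2 and 120 in Negative, an 8.45-fold difference (3.08 ± 0.41 SE, adjusted p = 0.000122, limma). Sublow C lay among the Low libraries and Sublow A and B below them. Npm1, a nucleolar chaperone, ranged from 3544 to 10219 (median 7790) in the cycling libraries and from 1466 to 2563 (median 1801) in the differentiated ones. Of 24 tRNA synthetases and translation factors, 19 were called higher, 0 lower, and 4 were shared (median 0.60).

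**Figure D4:**
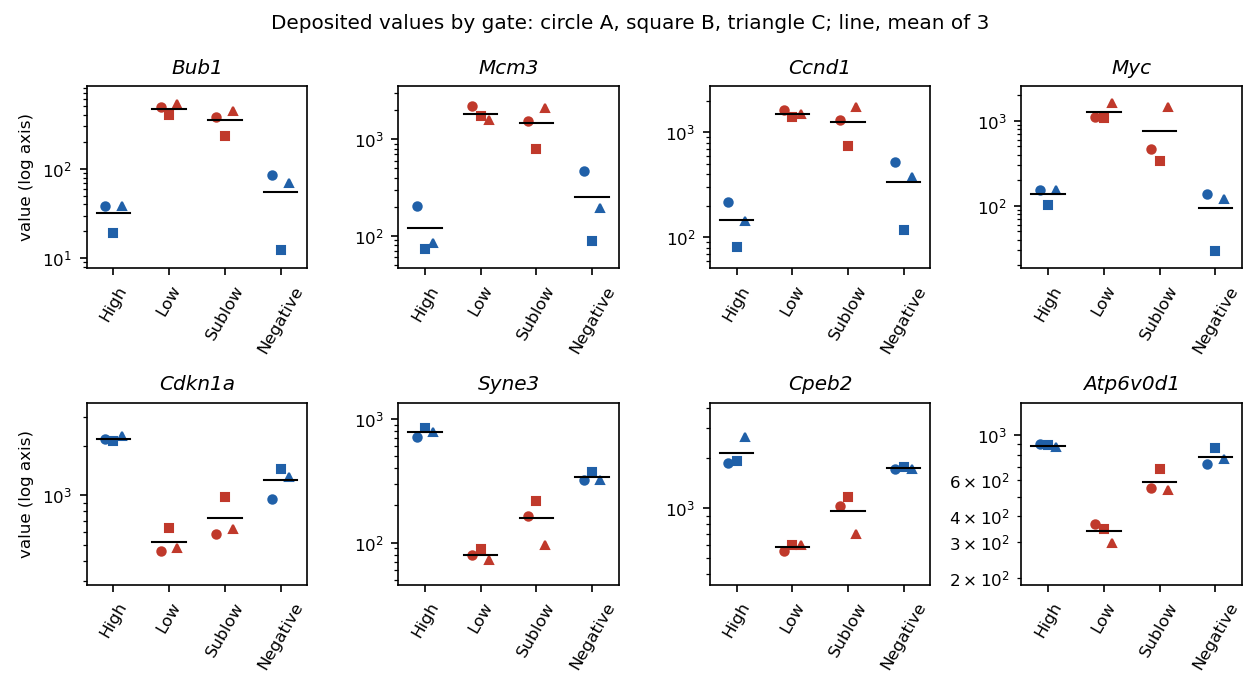
Points are the deposited values (y, log axis) of 8 genes in the 4 gates (x), 1 symbol per replicate letter, with the mean of 3 as a line; cycling gates are red. Bub1, Mcm3, Ccnd1 and Myc are high in Low and Sublow, and Cdkn1a, Syne3, Cpeb2 and Atp6v0d1 in High and Negative. For each of Cdkn1a, Syne3, Cpeb2 and Atp6v0d1 the Sublow mean lies between those of Low and Negative.

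Chromatin regulators were mostly higher on the cycling side. The list tested held 34 DNA methylation, Polycomb and other chromatin genes. Of these, 24 were called higher in the cycling gates and 5 in the differentiated gates, with 10 and 1 shared (median 0.59). Over all genes, 20.2% and 23.3% were called and 5.33% and 1.48% were shared. Dnmt1, which copies methylation after replication, differed by 2.03 ± 0.23 SE (adjusted p = 4.60e-05, limma), and Ezh2, the Polycomb histone methylase, ranged from 1162 to 1889 (median 1665) in the cycling libraries and from 639 to 963 (median 768) in the differentiated ones. The shared cycling members were those 2, Hells, Cbx3, Cbx5, Suv39h1, Suv39h2, Setdb1, Hmgb1 and Hmgb2. From Cbx3 on, these are other chromatin genes, not DNA methylation or Polycomb genes. The shared gene in the other direction was Tet2, which oxidises methylcytosine, with 1866, 1723 and 1646 in High and 1703, 1701 and 1725 in Negative, against 1105, 1111 and 861 in Low and 1305, 1409 and 966 in Sublow. Its groups did not overlap (-0.64 ± 0.11 SE, adjusted p = 0.000637, limma), and the shared call held in 15 of 23 alternatives. That call was lost with edgeR, with quantile scaling and with the same total. It was also lost without Negative A, Negative B, Negative C, Sublow A or Sublow C.

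Most stem cell genes were called on average, and fewer were shared. Of 24 active stem cell genes tested, 21 were called higher in the cycling gates and 3 were shared, against 5.33% of all genes: Cdca7 and Slc12a2, which kept the shared call in all 23 alternatives, and Lrig1, which kept it in 12. The number shared was 7 without Sublow B and 2 without any 1 library of High or Low or without Sublow A or Sublow C. Lgr5, the receptor that marks crypt base stem cells, stood at 264, 115 and 519 in Sublow and 853, 573 and 853 in High, so Sublow did not exceed High, although the contrast called it (1.81 ± 0.31 SE, adjusted p = 0.000711, limma). Slc12a2, a chloride cotransporter, stood at 47018, 38602 and 43152 in Low, 15863, 9013 and 25372 in Sublow, 5177, 2522 and 3808 in High and 4106, 724 and 2467 in Negative. Of the 14 Notch pathway genes tested, 8 were called higher in the cycling gates and 2 in the differentiated gates, against 20.2% and 23.3% of all genes. In this list 2 were shared by the cycling gates, against 5.33% of all genes: Notch2, a receptor, and Nrarp, a feedback inhibitor. Prelp, an extracellular matrix protein, was among the 15 named genes with 1231, 1193 and 1247 in Low, 353, 208 and 857 in Sublow, 87.5, 36.9 and 75.2 in High and 120, 21.5 and 49.1 in Negative.

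Goblet genes were shared by the cycling gates. Of 18 tested, 17 were called higher there and 1 lower, and 12 were shared (median 2.95). Muc2, the gel-forming mucin, stood at 52007, 144626 and 50862 in Low and 107602, 164377 and 151048 in Sublow, against 1945, 1864 and 1298 in High and 23836, 14602 and 28845 in Negative. The sides did not overlap (4.06 ± 0.27 SE, adjusted p = 6.30e-06, limma), but Negative was called above High (log2 difference of High minus Negative -3.69, adjusted p = 4.46e-06, limma). Spdef, the transcription factor of goblet maturation, ranged from 275 to 927 (median 397) in the cycling libraries and from 55.8 to 121 (median 72.9) in the differentiated ones. Within the cycling gates Muc2 was highest in Sublow B, the library that was lowest for most of the shared cycling genes. Of 18 Paneth genes, 4 were called higher in the cycling gates, near the 20.2% of all genes, 1 was called lower, and 0 were shared. The median of the cycling gates for this list was 3.17 against High and -1.70 against Negative on the log2 scale.

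On the differentiated side, the 15 named genes of 205 eligible were Trim38, Slc16a3, Cyp4b1, Kalrn, Gramd1b, Slfn5, Espn, Glyctk, Gprin1, Cpeb3, Slco2a1, Atp6v0e2, Ddc, Syne3 and Cdhr5. Their smallest log2 differences ran from 1.13 (Cdhr5) to 1.77 (Trim38), below those of all 15 named cycling genes. Syne3, a protein of the outer nuclear membrane, stood at 722, 850 and 792 in High and 322, 372 and 320 in Negative, against 79.5, 88.2 and 72.9 in Low and 165, 218 and 95.8 in Sublow (-2.22 ± 0.17 SE, adjusted p = 9.81e-06, limma). Slfn5, of the interferon-inducible Schlafen family, stood at 376, 235 and 234 in High, 211, 206 and 266 in Negative, 29.4, 38.5 and 25.4 in Low and 108, 119 and 48.3 in Sublow (-2.26 ± 0.23 SE, adjusted p = 3.18e-05, limma). For both genes Low lay below Sublow, and both kept the shared call in all 23 alternatives.

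Trim38, an E3 ubiquitin ligase, had the largest difference, with 2216, 2240 and 2133 in High, 702, 910 and 674 in Negative, 64.3, 41.1 and 21.4 in Low and 235, 540 and 84.4 in Sublow (-3.78 ± 0.37 SE, adjusted p = 2.58e-05, limma). The 4 gates formed 4 levels, and the shared call held in 17 of 23 alternatives. Slc16a3, a lactate exporter, ranged from 260 to 437 (median 340) in the differentiated libraries and from 38.5 to 208 (median 52.2) in the cycling ones, and lost the shared call in 1 of 23 alternatives, without Negative B. Kalrn, a guanine nucleotide exchange factor, Ddc, the decarboxylase of serotonin and dopamine synthesis, and Cpeb3 lost it in the same single setting. Espn held it in 9 of 23 alternatives and Slco2a1, a prostaglandin transporter, in 10. The contrast itself stayed called in the same direction for all 30 named genes under all 23 alternatives. Those genes were picked for large differences without overlap in these libraries, so this is not separate support.

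The 14 genes shared by the differentiated gates under each of the 23 alternatives were Adprm, B4galt5, Cfb, Clec2d, Cpeb2, Dapp1, Entpd5, Itgb2l, Mgst3, Mroh1, Ms4a8a, Saraf, Slfn5 and Syne3. Cfb, complement factor B, ranged from 2942 to 4037 (median 3189) in the differentiated libraries and from 1243 to 2536 (median 1464) in the cycling ones (-1.04 ± 0.12 SE, adjusted p = 4.79e-05, limma). Mgst3, a microsomal glutathione transferase, ranged from 1829 to 2500 (median 2042) and from 550 to 1500 (median 890). Saraf, which limits store-operated calcium entry, ranged from 1159 to 1521 (median 1401) and from 501 to 982 (median 586). For none of these 3 did the sides overlap.

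Members of the CPEB family bind cytoplasmic polyadenylation elements in messenger RNA, and Cpeb2, Cpeb3 and Cpeb4 were shared by the differentiated gates. Cpeb2 and Cpeb4 were singled out after their values were seen. Cpeb2 stood at 1873, 1903 and 2685 in High, 1718, 1761 and 1709 in Negative, 553, 599 and 597 in Low and 1025, 1164 and 702 in Sublow (-1.37 ± 0.13 SE, adjusted p = 2.19e-05, limma). Cpeb3 differed by -1.63 ± 0.23 SE (adjusted p = 0.000163, limma) and Cpeb4 by -1.20 ± 0.16 SE (adjusted p = 0.000108, limma). High and Negative were not called different for any of them, and the sides did not overlap in Cpeb2.

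Of 24 cell cycle exit and CDK inhibitor genes tested, 13 were called higher in the differentiated gates and 2 higher in the cycling gates, against 23.3% and 20.2% of all genes (median log2 difference -0.49). The shared ones were Cdkn1a and Gadd45a, and their number was 0 without Negative B, Negative C, Sublow A or Sublow C, 0 with libraries scaled to the same total, and 3 without Sublow B. Cdkn1a, the CDK inhibitor p21, stood at 2208, 2152 and 2303 in High, 950, 1458 and 1300 in Negative, 455, 632 and 478 in Low and 583, 972 and 627 in Sublow (-1.44 ± 0.15 SE, adjusted p = 3.30e-05, limma). Negative A, at the low end of the differentiated side, lay just under Sublow B, at the high end of the cycling side, so these 2 libraries overlapped. Other inhibitors were not shared. Cdkn1c, p57, was called by the contrast with 2511, 2572 and 1755 in High, against a mean of 89.7 ± 34.5 (SD, n = 3) in Negative, and Cdkn2b, p15, stood at 137, 184 and 86.2 in High and 1411, 1755 and 1151 in Negative and was not called (-0.51 ± 0.32 SE, adjusted p = 0.222, limma). Cdkn2c, p18, was shared by the cycling gates (1.61 ± 0.19 SE, adjusted p = 6.77e-05, limma).

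The vacuolar ATPase, the proton pump that acidifies lysosomes, endosomes and secretory granules, was the list with the highest share of members shared by the differentiated gates among those plotted. Of 17 subunits and accessory proteins tested of 18 listed, 15 were called higher in the differentiated gates, 0 lower, and 9 were shared (median log2 difference -0.66, against 23.3% called and 1.48% shared over all genes). They were Atp6v0a1, Atp6v0c, Atp6v0d1, Atp6v1a, Atp6v1c1, Atp6v1d, Atp6v1e1, Atp6v1h and Atp6ap1. Atp6v0d1, of the membrane sector, stood at 898, 886 and 869 in High, 719, 863 and 765 in Negative, 368, 349 and 296 in Low and 550, 680 and 540 in Sublow. Atp6v1a, the catalytic subunit, stood at 1200, 1028 and 1319 in High, 1016, 1004 and 914 in Negative, 549, 644 and 668 in Low and 720, 795 and 734 in Sublow. The sides did not overlap in either gene, with Sublow between Low and Negative. A further subunit gene, Atp6v0e2, was among the 15 named genes.

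The differences of the pump were small and their count depended on single libraries and on the scaling. The 9 shared members differed by -1.23 (Atp6v0a1) to -0.53 (Atp6v1h) on the log2 scale. The number shared was 9 with DESeq2, 4 with edgeR, 2 with quantile scaling and 0 when all libraries were scaled to the same total, and it was 0 without Negative B, 0 without Sublow A, 1 without Sublow C, 4 without Negative C, and 5 without Negative A or Low B. The contrast still called 13 of 17 higher in the differentiated gates without Negative B.

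Lysosomal and autophagy genes moved less uniformly. Over all genes, 23.3% were called higher in the differentiated gates and 1.48% were shared by them. Of 40 lysosome genes, 22 were called higher in the differentiated gates and 1 lower, and 2 were shared, among them Ctsa, a lysosomal carboxypeptidase (median -0.36). The number shared was 0 without Negative B, Sublow A or Sublow C and 0 with quantile scaling or the same total, 1 without High C or Negative C, and 5 without Sublow B. Of 39 autophagy genes tested, 23 were called higher there and 1 lower, and 5 were shared: Atg3, Gabarapl2, Nbr1, Tax1bp1 and Rb1cc1 (median -0.37). Gabarapl2, a protein conjugated to autophagosome membranes, stood at 2102, 2223 and 1783 in High, 886, 1081 and 922 in Negative, 471, 546 and 474 in Low and 692, 712 and 605 in Sublow (-1.28 ± 0.09 SE, adjusted p = 9.07e-06, limma). Its sides did not overlap, and it kept the shared call in 20 of 23 alternatives. The number of autophagy genes shared was 0 without Negative B, 1 without Sublow A or Sublow C, 3 without High A, High B, Low B or Negative A, 8 without Sublow B, and 0 with libraries scaled to the same total.

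Of 28 MHC class I and interferon response genes, 17 were called higher in the differentiated gates, against 23.3% of all genes, and 0 lower (median -0.92). Shared were 4, against 1.48% of all genes: H2-D1, Stat2, Irf7 and Ifi27. Irf7, a transcription factor of the interferon response, stood at 1848, 1624 and 1749 in High, 1656, 2008 and 924 in Negative, 309, 358 and 234 in Low and 800, 1070 and 387 in Sublow (-1.81 ± 0.25 SE, adjusted p = 0.00014, limma). Sublow B lay above Negative C, so the sides overlapped. H2-D1, a class I heavy chain, ranged from 7086 to 12718 (median 11603) in the differentiated libraries and from 2188 to 7250 (median 3462) in the cycling ones, which also overlapped. The number shared from this list was 0 with edgeR and 0 with libraries scaled to the same total. It was also 0 without High A, High C, Low A, Negative A, Negative B, Sublow A or Sublow C, 1 without High B, 2 without Low B and 7 without Sublow B. H2-T3, another class I gene, stood at 4533, 6074 and 4187 in Negative, 2199, 3457 and 1058 in Sublow, 526, 706 and 457 in Low and 129, 141 and 76.9 in High, so the differentiated gates were its highest and its lowest, and it was not called (0.51 ± 0.26 SE, adjusted p = 0.132, limma). The summed level of 11 T cell markers was 655 to 753 in Negative, 485 to 710 in High, 435 to 493 in Low and 373 to 626 in Sublow, and its part in this list was not tested.

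Of 19 brush border cytoskeleton genes, 10 were called higher in the differentiated gates, against 23.3% of all genes, and 0 lower (median -0.86). Shared were 2, against 1.48% of all genes. Both are named genes. The number shared was 0 without High C, Negative B, Negative C, Sublow A or Sublow C and 0 with edgeR, quantile scaling or the same total. It was 1 without High A, High B, Low A, Low B or Negative A, 1 with no filter, and 4 without Sublow B. Cdhr5, a protocadherin that links microvilli, stood at 18898, 19436 and 22305 in High, 19436, 26958 and 18446 in Negative, 3045, 3998 and 2128 in Low and 10654, 15804 and 4657 in Sublow. Espn, the actin-bundling protein espin, ranged from 2922 to 6727 (median 5075) in the differentiated libraries and from 519 to 2829 (median 1005) in the cycling ones. Vil1, the bundling protein villin, was called by the contrast but not shared, with 21491, 33207 and 10975 in Sublow and 12077, 12769 and 11406 in High. Of 21 brush border enzymes and transporters, 6 were called higher in the differentiated gates, near the share over all genes, and 1 was shared, Slc6a19, the neutral amino acid transporter, with values from 2599 to 4967 (median 3309) in the differentiated libraries and from 455 to 2605 (median 588) in the cycling ones. It kept the shared call in 16 of 23 alternatives.

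**Figure D5:**
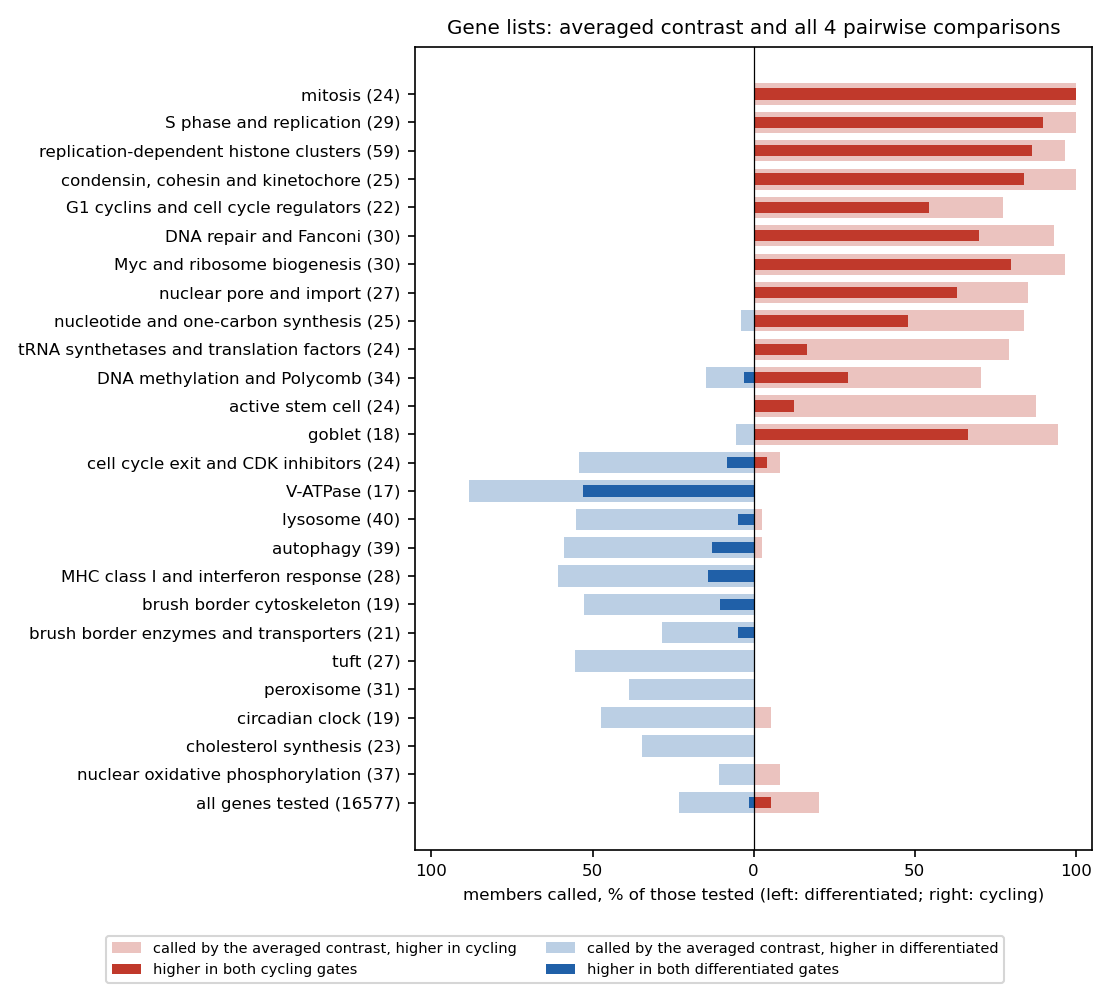
Bars give the percentage of tested members (x axis) of each list (y axis, number tested in brackets) called by the averaged contrast (pale) and by all 4 pairwise comparisons (dark), to the right for higher in cycling and to the left for higher in differentiated. For mitosis both reach 100% on the right, while for tuft, peroxisome, circadian and cholesterol genes only pale bars appear on the left.

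Other lists with calls on the differentiated side had 0 members shared, which is near the 1.48% of all genes, and 23.3% of all genes were called there. Of 27 tuft genes tested, 15 were called higher in the differentiated gates, and the median of the cycling gates was -5.39 against High and 2.64 against Negative on the log2 scale. Of 31 peroxisome genes, 12 were called, with medians of 0.23 against High and -1.11 against Negative. The circadian clock list had 9 of 19 called, and the cholesterol synthesis list 8 of 23. The clock genes had medians of -0.55 against High and -0.44 against Negative. Nuclear oxidative phosphorylation genes had 3 of 37 called higher in the cycling gates and 4 lower, with medians of 1.05 against High and -0.97 against Negative.

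At the edge of the shared calls, the largest of the 4 adjusted p-values was 0.0495 for Cenph and for Prpf19, just inside the cycling set, and 0.0501 for Tmsb4x, just outside it next to Haus6. For the differentiated set it was 0.0492 for Mtmr11 and 0.0499 for Abcb9 inside, and 0.0501 for Kif5b and 0.0511 for Pcsk4 outside. Abcb9, a lysosomal peptide transporter, ranged from 413 to 929 (median 692) in the differentiated libraries and from 145 to 407 (median 224) in the cycling ones.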

How the data were processed

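Total RNA from 12 sorted cell samples was sequenced by the authors, who deposited 1 table of normalised values per gene symbol, a signal unit. For the aligner, the counter, the annotation and the genome build, nothing is given in the sources used here. In each library every deposited value was a whole multiple of 1 step (100% within 0.01 of a read), so the values are read counts divided by 1 size factor per library and the whole reads could be recovered. Library depth was 11630042 to 17046944 such reads, and 3 reads, the limit that a count of 0 allows, correspond to 2.38 to 4.61 on the deposited scale.

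All 12 libraries entered 1 limma fit (version 3.58.1, R 4.3.3, trended prior) on log2(value + 1) with a mean for each gate. Contrasts and p-values with Benjamini-Hochberg adjustment came from this fit over the 16577 genes that reached a value of 10 in 3 or more libraries, and 2416 of 30265 symbols were 0 in all libraries. Fold changes on this scale understate the change of low genes. The fits were tested on simulated data, with 100 genes changed 2-fold and 100 changed 4-fold between the sides. With limma the contrast recovered 83% and 98% of them, and the shared rule 25% and 83%. Unchanged genes gave 11 false calls of the contrast and 0 of the shared rule. No simulated gene changed in a single gate alone, so these counts do not cover such genes. edgeR (4.0.16) and DESeq2 (1.42.0) on the recovered read counts, other scalings, filters and pseudocounts, a replicate block, library weights and leaving out each library were run as alternatives.

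The named genes were the 15 on each side with the largest smallest-of-4 pairwise difference, among shared genes with a mean of at least 100 and no overlap of the 6 and 6 libraries. Predicted genes, clones and ribosomal and small RNAs were skipped, and members of the lists were named where a list is described. The members and lists were chosen with earlier results of these data known. Promoter letters came from the first listed start of each gene symbol (RefSeq, GRCm38.p6). The shares are given against all promoters of that table, since 11949 of the 16577 genes tested had an entry, under 80%. Motif shares are given only for sets with at least 80% of members matched, apart from CCAAT counts for the cholesterol synthesis and ESCRT lists.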

Additional observations from a re-analysis of the deposited data

Results flagged for a closer look

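Among the 15 named genes of the differentiated gates, 8 also differed between the gates of one side, by the test of that difference itself in the same limma fit. High was above Negative for Trim38 by 1.54 on the log2 scale (adjusted p = 0.0264), for Glyctk, a glycerate kinase, by 1.27 (0.0180), for Gprin1 by 0.97 (0.0442), for Ddc by 0.95 (0.00920) and for Syne3 by 1.22 (0.000970). Low minus Sublow was -2.49 for Trim38 (adjusted p = 0.00559), -1.44 for Kalrn (0.0155), -1.45 for Slfn5 (0.00784), -0.91 for Syne3 (0.0177) and -1.64 for Cdhr5 (0.00713). Neither difference was called for the other named genes, including all 15 of the cycling gates.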

How the results depend on the processing

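The sign of the contrast and its side of the threshold were kept in 2901 of 2921 values of named genes under alternatives. Of the others, 11, all of Chga, lost and 7, of H2-T3 and Cdkn2b, gained the call, and 2 changed sign, both of Sox9, which was not called (-0.09 without Negative B, and -0.10 to 0.22 over all settings that leave out 1 library, lowest without Sublow C). The count called by the contrast was 6148 to 7894 when 1 library was left out, and 2716 with a 2-fold minimum. The genes shared by the cycling gates numbered 516 to 1255 when 1 library was left out and 543 at 2-fold or more in all 4 comparisons. Those shared by the differentiated gates numbered 36 to 465 when 1 library was left out, 131 with edgeR, 559 with library weights, 155 with no filter, 61 with the same total in every library, 30 at 2-fold or more, and 423 without Sublow B and Negative A, which was chosen after seeing the data. The cause was not tested. With DESeq2 the counts were 1105 and 302. Of the 245, 129 were shared with edgeR, 240 with DESeq2 and 42 with the same total. Of the 884, 869, 874 and 684 were.

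The labels do not say what the replicate letters stand for. Deviations of same-letter libraries from their gate means correlated at 0.0521 to 0.341, above 0.1 for 13 of 18 pairs, and 12 of 12 libraries correlated best with their own letter, a hint from the data and not from the design. With the letter as a replicate block, 8181 genes were called, 1164 were shared by the cycling gates and 401 by the differentiated gates.

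Counting error limits genes near the floor of 3 reads, and the 3 libraries of each gate limit the precision of every difference.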

Other observations

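Single genes outside the lists described above were shared as well, in lists whose number of shared members was near the 5.33% (cycling) and 1.48% (differentiated) of all genes. Of 25 BMP and TGF-beta pathway genes, 13 were called higher in the differentiated gates and 4 in the cycling gates, and the 2 shared ones, Id4 and Tgfbr2, were both higher in the cycling gates. Tgfbr2, a TGF-beta receptor, ranged from 399 to 564 (median 501) in the cycling libraries and from 84.5 to 280 (median 193) in the differentiated ones (1.52 ± 0.12 SE, adjusted p = 1.02e-05, limma). Id4, an inhibitor of helix-loop-helix factors, ranged from 79.5 to 250 (median 93.0) and from 6.15 to 22.8 (median 8.83). Of 28 cell junction genes, Cldn2, a claudin that forms cation pores, was the only shared one, with values from 673 to 1727 (median 1474) against 211 to 528 (median 453) (1.73 ± 0.25 SE, adjusted p = 0.000234, limma). Cyr61, a matricellular protein, was the only shared gene of 24 immediate early genes, with 1029, 1456 and 1480 in Low, 278, 463 and 997 in Sublow, 118, 204 and 215 in High and 143, 106 and 127 in Negative. In Cyr61 the sides did not overlap.

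On the differentiated side, 20 of 41 SNARE, Rab and trafficking genes tested were called higher and 4 lower. Of these, 3 were shared by the cycling gates and 1, Stx7, a SNARE of endosomes, by the differentiated gates. Stx7 ranged from 1275 to 1719 (median 1351) in the differentiated libraries and from 560 to 1065 (median 714) in the cycling ones (-0.98 ± 0.12 SE, adjusted p = 7.76e-05, limma). Vps37a, an ESCRT-I subunit, ranged from 1349 to 2038 (median 1650) and from 678 to 1115 (median 805), and kept the shared call in 22 of 23 alternatives, and Stx7 did in 20. Casp9, the initiator caspase of the mitochondrial apoptosis pathway, differed by -0.88 ± 0.15 SE (adjusted p = 0.000639, limma), and Irs2, an adaptor of the insulin receptor, by -0.83 ± 0.13 SE (adjusted p = 0.000454, limma). Both were shared, Casp9 in 19 and Irs2 in 13 of 23 alternatives. Vegfa, an angiogenic growth factor chosen after its values were seen, was shared in 19 of 23 alternatives and stood at 4708, 5475 and 4380 in High, 2694, 4326 and 2879 in Negative, 1545, 1595 and 1370 in Low and 1632, 2467 and 837 in Sublow.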
